A study of Mus musculus with 12 samples.

Results

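Transcript levels of the 39 mouse Hox genes were compared across 12 RNA libraries. Members were all genes with a GENCODE M21 symbol of the form Hoxa, Hoxb, Hoxc or Hoxd and a number, and all 39 were listed in every file, among 54100 features shared by the 12 files. The rule names genes by symbol and uses no measured value, and it was chosen with earlier results of these data known. Libraries of SSTC3 (n = 2) and DMSO (n = 2) came from cells whose names run from TREX1-KO BMDM to TREX4-KO BMDM, where BMDM stands for bone marrow-derived macrophages and the name carries another number in each library. SSTC3 is a small molecule that activates the kinase CK1α, and DMSO is its solvent. Libraries of CK1α overexpression, written CK1a_OE (n = 2), and their OE_control (n = 2) came from MEF, mouse embryonic fibroblasts, as did those of CK1α siRNA knockdown, CK1a_KD (n = 2), and KD_control (n = 2). All 6 groups carry the genotype label C57BL/6J. A TREX knockout stands in the cell names of SSTC3 and DMSO and in those of no other group. Whether the numbers name different knockouts is not stated, and they cannot be told apart from the treatment. Doses, times, ages, the overexpression construct and the siRNA are not named in the labels, and nothing says that the 2 libraries of a group came from separate cultures, so p-values measure a spread that may be technical.

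Hox genes encode homeodomain transcription factors that give cells their position along the head-to-tail axis of the embryo. They lie in 4 clusters, and genes of the same paralogue number in different clusters descend from a common ancestor. Low numbers are used from the hindbrain backwards and high numbers only towards the tail and the ends of the limbs, in the order in which they stand on the chromosome. Fibroblasts are known to keep in culture much of the Hox pattern of the body site they came from, and genes of the HoxA and HoxB clusters are also used by blood-forming cells. In mm10, HoxA spans chr6:52155590-52260880 with 11 genes, HoxB chr11:96194316-96368256 with 10, HoxC chr15:102921103-103036852 with 9 and HoxD chr2:74668310-74765142 with 9.

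The promoters of 4 genes are printed because their genes stand for the main patterns described here. Hoxa5 was detected in every cell set, Hoxc4 fell with SSTC3, and Hoxa9 and Hoxb8 were detected only in the knockdown MEFs and rose with the siRNA. Each sequence is the 250 bases before the RefSeq transcription start on the gene's own strand, from the GRCm38.p6 table, and capitals mark each CG, the dinucleotide at which cytosine is methylated in mammals.
Hoxa5: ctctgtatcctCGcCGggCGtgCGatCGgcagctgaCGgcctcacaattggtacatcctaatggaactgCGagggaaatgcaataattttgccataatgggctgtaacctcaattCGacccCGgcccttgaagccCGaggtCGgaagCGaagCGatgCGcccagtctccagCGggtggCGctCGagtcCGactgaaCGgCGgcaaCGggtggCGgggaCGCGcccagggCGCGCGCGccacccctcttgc
Hoxa9: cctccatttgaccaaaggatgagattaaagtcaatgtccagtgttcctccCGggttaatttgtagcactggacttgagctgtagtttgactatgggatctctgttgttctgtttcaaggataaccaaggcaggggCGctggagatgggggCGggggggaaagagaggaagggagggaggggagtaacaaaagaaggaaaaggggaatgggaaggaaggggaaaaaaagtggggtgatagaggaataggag
Hoxb8: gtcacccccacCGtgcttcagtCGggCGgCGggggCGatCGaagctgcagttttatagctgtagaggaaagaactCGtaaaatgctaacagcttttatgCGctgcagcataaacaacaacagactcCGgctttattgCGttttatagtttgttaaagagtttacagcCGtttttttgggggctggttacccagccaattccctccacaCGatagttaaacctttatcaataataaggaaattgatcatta
Hoxc4: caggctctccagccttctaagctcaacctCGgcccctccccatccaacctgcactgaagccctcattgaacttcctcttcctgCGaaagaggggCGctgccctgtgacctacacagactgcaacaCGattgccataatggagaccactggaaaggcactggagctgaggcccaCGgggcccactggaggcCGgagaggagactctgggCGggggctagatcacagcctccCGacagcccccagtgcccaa
They lie at chr6:52204588-52204837 (minus strand), chr6:52227371-52227620 (minus strand), chr11:96281655-96281904 (plus strand) and chr15:103034145-103034394 (plus strand). CG occurs 28 times in the Hoxa5 sequence, 3 times in that of Hoxa9, 12 times in that of Hoxb8 and 8 times in that of Hoxc4. The RefSeq table held 24 windows for 22 of the 39 Hox genes. Over the full windows of 300 bases, Hox promoters had a median of 14.5 CG and a range of 4 to 45, against a median of 7 in all 32851 promoters of that length. TGATNNAT, a composite site of Hox proteins with their Pbx partners, was searched on both strands. It was found in 4 of the 24 Hox windows and in 8.85% of all promoters, and in Hoxb8 it starts 11 bases before the transcription start. A match is a run of letters and says nothing of binding in these cells.

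Library totals ran from 16063627 to 19427506 counts, so 3 counts, the floor used here, stood for 0.154 to 0.187 CPM (counts per 1000000 counts of the library). Csnk1a1, which encodes CK1α, had 171.5 and 169.2 CPM in CK1a_KD, against 325 and 354.1 CPM in KD_control (log2 fold change −0.96 ± 0.05, adjusted p = 2.88e-27). Its level was 426.4 and 424 CPM in SSTC3 libraries, against 413.2 and 430 CPM in DMSO libraries (0.07 ± 0.04, adjusted p = 0.111). In the libraries labelled CK1a_OE its level was 229.3 and 244.4 CPM, against 237.8 and 234.7 CPM in OE_control, a log2 fold change of −0.01 ± 0.04 (SE, adjusted p = 0.901, edgeR), and was thus not measurably higher. The BMDM label did not match its markers. The macrophage genes Adgre1 and Itgam were at 0 in all 4 SSTC3 and DMSO libraries, the 20 measured macrophage markers summed to 10.7 to 14.9 CPM, and 14 fibroblast markers summed to 8270 to 9380 CPM. Vim (2531 to 2936 CPM) and Col1a1 (2242 to 2863 CPM) were large parts of that fibroblast sum. Other fibroblast markers were low there, with Thy1 at 2.79 to 4.65 CPM and Postn at 2.41 to 4.16 CPM. Dcn had 0.708 to 1.295 CPM, Fap at most 0.293 CPM and Lum at most 0.117 CPM. The MEF libraries had fibroblast sums of 4030 to 4640 CPM (overexpression) and 3630 to 4330 CPM (knockdown). Most of the overexpression sum was Vim (1586 to 1969 CPM) and Fn1 (1837 to 1940 CPM). Most of the knockdown sum was Vim (2637 to 3555 CPM). Thy1, Dcn, Lum, Fap and Postn each had at most 0.566 CPM in any MEF library. Macrophage sums of the MEF libraries were 21.4 to 24.1 CPM (overexpression) and 272 to 328 CPM (knockdown), the second with 246 to 296 CPM of Cd68 alone. Neural markers, 8 in number, added up to between 815 and 894 CPM per overexpression library. Of these, Nes alone had 707 to 774 CPM and Map2 83.4 to 88.7 CPM, while Sox2 was at 0. The same total lay between 118 and 135 CPM in SSTC3 and DMSO libraries and between 16.7 and 21.2 CPM in knockdown libraries, all without counts of Map2. The part of these markers in the Hox results was not tested. The overexpression files hold 0 counts for the 37 mitochondrial genes, which took 1.23% to 1.98% of the counts elsewhere.

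The 3 cell sets carried 3 different Hox patterns. With detection set at 1 CPM or more in all 4 libraries of a set, 17 Hox genes were detected in the SSTC3 and DMSO set, 3 in the overexpression MEFs and 23 in the knockdown MEFs. Those at the floor, with at most 3 counts in every library, numbered 8, 31 and 10, and the other 14, 5 and 6 lay between. Hoxa5 was 1 of 2 genes detected in all 3 sets. Another 12 were shared by the SSTC3 and DMSO set and the knockdown MEFs, among them Hoxc4, Hoxc5, Hoxc6, Hoxc8, Hoxc9, Hoxd8 and Hoxd9. Hoxa4, Hoxb3 and Hoxd10 were detected in the SSTC3 and DMSO set alone. Hoxb3, at 1.88 to 2.46 CPM there, had 4.02 and 3.1 CPM in CK1a_KD. It missed detection in the knockdown MEFs through KD_control alone (0.934 and 0.785 CPM). Detected only in the knockdown MEFs were Hoxa9, Hoxa10, Hoxb5, Hoxb6, Hoxb7, Hoxb8, Hoxb13 and Hoxc10. Hoxa6 was detected in both MEF sets and not in the other, where it had 0.294 and 0.885 CPM with SSTC3 and 1.53 and 1.96 CPM with DMSO. The remaining 13 were detected in no set. They include Hoxb1, Hoxc12, Hoxd12 and Hoxd13, which stayed at or under the floor in all 12 libraries.

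**Figure D1:**
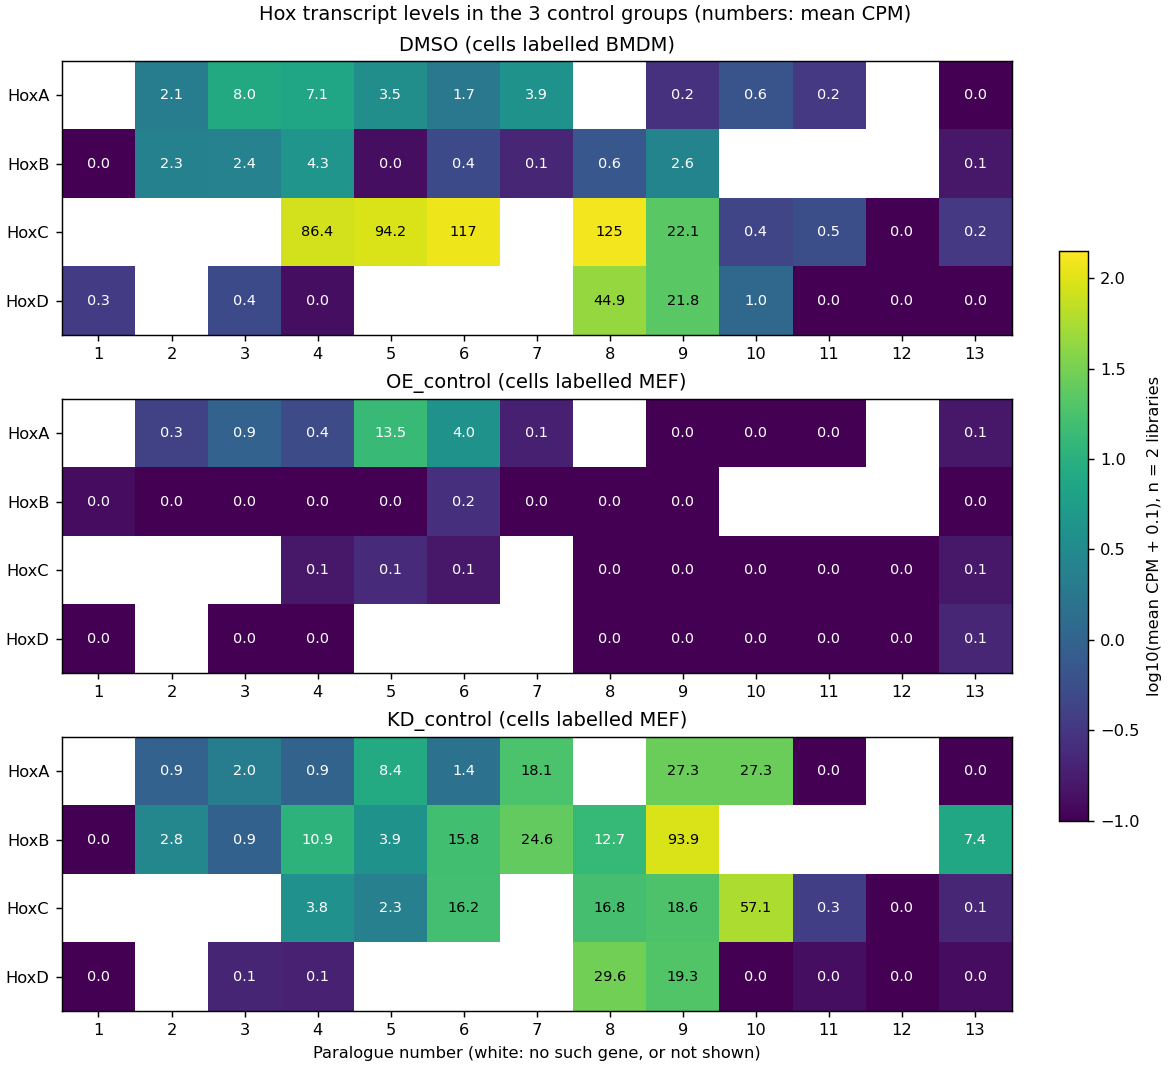
Mean CPM of Hox genes in the 3 control groups (n = 2 libraries each), by cluster (rows) and paralogue number (columns), with colour on a log10 scale and white where no such gene exists or its value is not shown. DMSO is brightest from Hoxc4 to Hoxc8, OE_control shows little beyond Hoxa5 and Hoxa6, and KD_control reaches Hoxa10, Hoxb13 and Hoxc10.

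The upper end of the detected series differed between the sets. In the SSTC3 and DMSO set it ended at Hoxa7, Hoxb9, Hoxc9 and Hoxd10. Hoxa9, the next member after Hoxa7, had 0.118 and 0 CPM with SSTC3 and 0.0586 and 0.297 CPM with DMSO. Hoxc10, the next after Hoxc9, had 0.294 and 0.413 CPM with SSTC3 and 0.352 and 0.356 CPM with DMSO. Hoxb13 had at most 0.0594 CPM there, and Hoxd11 had 0.236 and 0.059 CPM with SSTC3 and 0 CPM in both DMSO libraries. In the knockdown MEFs the series ran on to Hoxa10, Hoxb13 and Hoxc10 but stopped at Hoxd9. Beyond them, Hoxa11 and Hoxd10 were at 0 in all 4 libraries and Hoxc11 had 0.0515 to 0.392 CPM. The overexpression set ended at Hoxa6, since Hoxa7 had 0 and 0.119 CPM in CK1a_OE and 0.173 and 0 CPM in OE_control.

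The 12 genes of paralogue groups 10 to 13, which specify the lumbar to tail regions and the limb ends in the embryo, show the same difference as a sum. They summed to 91.01 to 98.91 CPM in the knockdown MEFs, 2.932 to 3.775 CPM in the SSTC3 and DMSO set and 0 to 0.2907 CPM in the overexpression MEFs. In the knockdown MEFs Hoxc10, Hoxa10 and Hoxb13 carried nearly all of it. Hoxb13, which marks the tail end of the body axis, had 9.21 and 8.99 CPM in CK1a_KD, against 7.78 and 7.12 CPM in KD_control. Paralogue groups 5 to 9, the genes of the trunk, gave 71.4% to 84.9% of all Hox CPM in each of the 12 libraries.

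On levels per kilobase of exon that no other gene shares, Hoxc6 led the SSTC3 and DMSO set with a mean of 35.6 CPM per kb over its 4 libraries (range 21.3 to 48.8). Hoxc8 followed at 32 and Hoxc5 at 25.1 CPM per kb, and the ranges of these 3 genes overlap. In the overexpression MEFs Hoxa5 led at 7.21 CPM per kb (6.86 to 7.56), and Hoxa6 followed at 4.04 (2.995 to 4.755), with no overlap between the ranges. The knockdown set was led by Hoxb9 at 29.4 CPM per kb (22.2 to 37.5) and Hoxc10 at 28.3 (23.2 to 34.2), whose ranges overlap. In CK1a_KD Hoxc10 was the higher of the 2 (23.2 and 24.3, against 22.2 CPM per kb of Hoxb9 in both libraries), and in KD_control Hoxb9 was (35.5 and 37.5, against 34.2 and 31.4 of Hoxc10). Hoxb7 came next at 18.3 (14.9 to 21.9), below both.

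Summed by cluster, HoxC dominated the SSTC3 and DMSO set, with 68.9% to 80.5% of Hox CPM. HoxA made up 94.9% to 97.6% of the small Hox sum of the overexpression MEFs. In the knockdown MEFs HoxB took the largest share, 38.5% to 40.9%, and the other clusters each gave 10.4% to 27.9%. All 39 genes together reached 317.1 and 294.4 CPM with SSTC3 and 548.9 and 563.5 CPM with DMSO. The sums were 20.88 and 20.56 CPM in CK1a_OE and 22.51 and 21.68 CPM in OE_control. In the knockdown MEFs they were 511.8 and 502.5 CPM in CK1a_KD and 424.5 and 431.8 CPM in KD_control. The cluster with the largest sum was the same in all 4 libraries of each set.

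**Figure D2:**
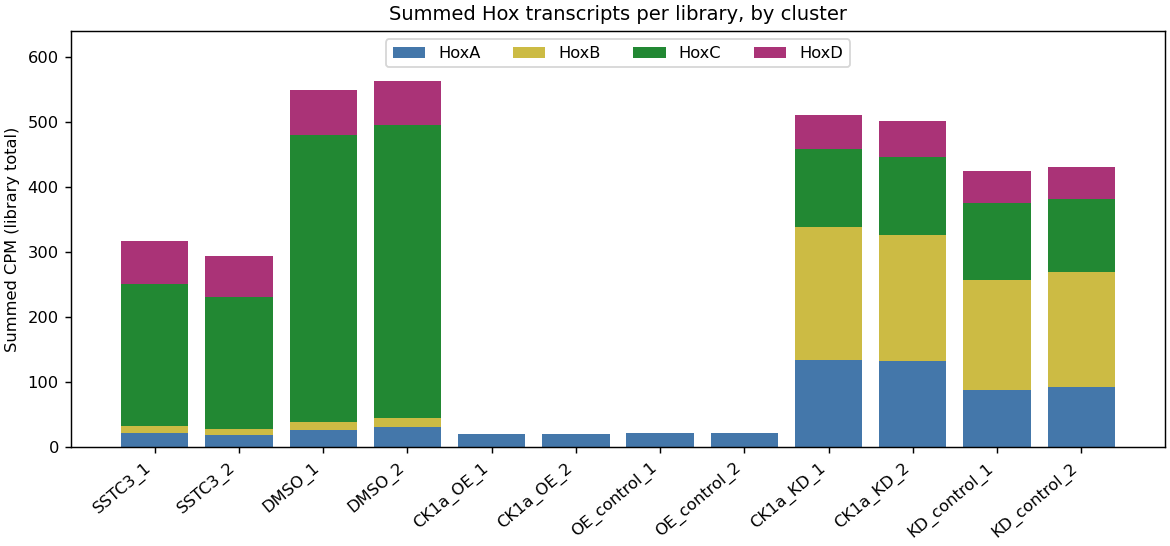
Summed CPM of the Hox genes in each of the 12 libraries, stacked by cluster. The SSTC3 bars reach 317.1 and 294.4 CPM and the DMSO bars 548.9 and 563.5 CPM, with HoxC as the main part of both. The 4 overexpression bars lie between 20.56 and 22.51 CPM.

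Differences between cell sets were tested between their control groups in 1 edgeR fit of all 12 libraries, in which 28 Hox genes passed the filter on low counts. A gene that passes through its high group alone has to differ, so the counts are a description. Cell set and any batch cannot be told apart. DMSO was higher than OE_control for 21 of the 28, with a background of 33.8% of the 17105 genes tested, and lower for 2, with a background of 34.9% (68.7% in either direction). Hoxc8 had 123.5 and 126.7 CPM in DMSO and 0 CPM in both OE_control libraries, at least 1439.7-fold higher against a floor of 3 counts over the group. By the same measure Hoxd8 was at least 517-fold, Hoxc9 at least 254-fold, Hoxd9 at least 251-fold and Hoxb4 at least 48.9-fold higher. Hoxc5 had 3194 counts in DMSO and 5 in OE_control, a ratio of 651 (95% counting interval 279 to 2005.4). Hoxc4 and Hoxc6 had 2 counts each in OE_control, and their ratios of 1491 (412 to 12316) and 2022.5 (560 to 16706) are loose for that reason. The 2 genes lower in DMSO were Hoxa5, with 3.64 and 3.44 CPM in DMSO and 12.9 and 14.2 CPM in OE_control, and Hoxa6, with 1.53 and 1.96 CPM in DMSO and 4.16 and 3.9 CPM in OE_control. Their log2 fold changes were −1.81 ± 0.18 (SE, adjusted p = 1.98e-15) and −1.08 ± 0.32 (adjusted p = 0.00176).

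DMSO was higher than KD_control for 10 of the 28 Hox genes, with a background of 38.8%, and lower for 13, with a background of 41.9% (80.7% in either direction). In HoxC, Hoxc4, Hoxc5, Hoxc6 and Hoxc8 were higher in DMSO, with Hoxc5 at 95.2 and 93.2 CPM in DMSO and 2.24 and 2.3 CPM in KD_control, a log2 fold change of 5.22 ± 0.14 (adjusted p = 2.03e-53). Hoxc10 was lower, at 0.352 and 0.356 CPM in DMSO and 59.6 and 54.6 CPM in KD_control (log2 fold change −7.45 ± 0.20, adjusted p = 5.65e-53). Between them, Hoxc9 had 20.3 and 23.9 CPM in DMSO and 19.4 and 17.9 CPM in KD_control, a log2 fold change of 0.10 ± 0.12 that was not called (adjusted p = 0.442). Hoxa9 and Hoxb7, with 6 and 4 counts in the 2 DMSO libraries together, were 154-fold (70.5 to 421) and 207-fold (80.7 to 763) lower than in KD_control by their counts. Hoxa10 (log2 fold change −5.74 ± 0.22) and Hoxb6 (−5.38 ± 0.27) were lower as well. Hoxb5 had 1 count in DMSO and 134 in KD_control, a ratio of 134 (23.6 to 5330.0), and Hoxb13 had 2 and 252, a ratio of 126 (34.5 to 1045.8). Hoxd10 ran the other way, with 35 counts in DMSO and 0 in KD_control, at least 11.7-fold higher. Hoxd8 was higher by a log2 fold change of 0.45 ± 0.09 (adjusted p = 5.58e-06), and Hoxd9 was not called (0.02 ± 0.12, adjusted p = 0.877). With both groups of each set averaged in place of the controls, Hoxc9 was lower than in the knockdown MEFs (−0.77, adjusted p = 3.01e-13), as was Hoxd9 (−0.33, adjusted p = 0.000464) and Hoxa6 (−1.08, adjusted p = 0.000278). These averages include the treated libraries, so treatment effects enter them. Hoxc9 changed by −0.99 with SSTC3 and 0.78 in CK1a_KD, Hoxa6 by −1.50 and 0.99, and Hoxd9 by −0.55 and 0.19.

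The 2 MEF controls, which share a cell label, differed at nearly every Hox gene tested. OE_control was higher than KD_control for 2 of the 28 (background 38.4%), and lower for 24 (background 41.4%, and 79.8% in either direction). The higher ones were Hoxa6 (log2 fold change 1.23 ± 0.33, adjusted p = 0.000497) and Hoxa5, which had 12.9 and 14.2 CPM in OE_control and 7.66 and 9.19 CPM in KD_control (0.41 ± 0.16, adjusted p = 0.0146). Hoxa5 lost its call with DESeq2 (adjusted p = 0.0716), without OE_control replicate 2 (0.0839) and without KD_control replicate 1 (0.163). Among the lower ones, Hoxb9 had 0 CPM in both OE_control libraries and 91.3 and 96.6 CPM in KD_control, at least 1083-fold lower. Against the same floor Hoxc10 was at least 656-fold lower, Hoxd8 at least 341-fold, Hoxa10 at least 315-fold, Hoxa9 at least 314-fold, Hoxb7 at least 282-fold, Hoxd9 at least 223-fold and Hoxc9 at least 214-fold. In bulk RNA, fewer cells with a transcript and less transcript per cell cannot be told apart.

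With SSTC3, the HoxC genes that dominate these cells were lower. Of 21 Hox genes tested against DMSO, 12 fell and 3 rose, where 26.5% of all 14151 genes tested fell, 27.1% rose and 53.6% did either. The other 18 were too low to be tested. Among the 3 that rose, Hoxc13 passed the filter on low counts through the SSTC3 libraries alone, so its call is a description. The median log2 fold change was −0.55 over the 21 tested Hox genes and 0.011 over all genes tested. Hoxc8 (ENSMUSG00000001657), a gene of the thoracic region in the embryo, had 59.8 and 52 CPM with SSTC3, against 123.5 and 126.7 CPM with DMSO. Its log2 fold change was −1.11 ± 0.06 (SE, n = 2 per group, adjusted p = 3.43e-48, edgeR quasi-likelihood test). Hoxc4 (ENSMUSG00000075394) had 36.3 and 35.7 CPM with SSTC3, against 84.5 and 88.2 CPM with DMSO (−1.21 ± 0.07, adjusted p = 8.62e-45). Hoxc6 (ENSMUSG00000001661) had 57.3 and 51.4 CPM with SSTC3, against 117.4 and 116.9 CPM with DMSO (−1.05 ± 0.06, adjusted p = 2.63e-44). In these 3 genes the higher SSTC3 library stayed well below the lower DMSO library.

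The other detected HoxC genes fell too. Hoxc5 had 54.4 and 50.7 CPM with SSTC3, against 95.2 and 93.2 CPM with DMSO (log2 fold change −0.79 ± 0.06, adjusted p = 2.76e-27). Hoxc9 had 10.1 and 11.4 CPM with SSTC3, against 20.3 and 23.9 CPM with DMSO (−0.99 ± 0.12, adjusted p = 1.52e-13). All 5 detected HoxC genes therefore fell, and the HoxC sum was 219.3 and 202.8 CPM with SSTC3, against 441.9 and 450.1 CPM with DMSO. Hoxc5 and Hoxc10 share 166 exonic bases on the same strand, but Hoxc10 had at most 0.413 CPM in these libraries. Hoxc10 and Hoxc11 were not tested. Hoxc13, the last gene of the cluster and known for its part in hair and nails, had 0.824 and 1 CPM with SSTC3, against 0.176 and 0.297 CPM with DMSO (1.97 ± 0.65, adjusted p = 0.00599). With 14 and 17 counts in SSTC3, against 3 and 5 in DMSO, Hoxc13 was tested only through the group where it is high. It had 8 counts in the DMSO libraries together and lost its call with DESeq2 (adjusted p = 0.0726) and without SSTC3 replicate 1 (0.0582), SSTC3 replicate 2 (0.128) or DMSO replicate 1 (0.125).

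The detected HoxD genes split. Hoxd8 had 48.1 and 48.9 CPM with SSTC3, against 44.7 and 45.1 CPM with DMSO, and its log2 fold change of 0.17 ± 0.07 (adjusted p = 0.0468) passed the threshold narrowly. The call was lost with RLE size factors (adjusted p = 0.0556), library totals (0.199), DESeq2 (0.2), no filter (0.131), all 12 libraries (0.137) and without any 1 of the 4 libraries (0.103 to 0.158). Hoxd9, its neighbour, fell to 16.1 and 12.6 CPM with SSTC3, against 22.3 and 21.2 CPM with DMSO (−0.55 ± 0.11, adjusted p = 1.31e-05). Hoxd10 had 1.12 and 1.77 CPM with SSTC3, against 1.06 and 1.01 CPM with DMSO, and was not called (adjusted p = 0.289). As a share of all Hox CPM, HoxD made up 20.8% and 21.6% with SSTC3 and 12.5% and 12.1% with DMSO, and HoxC 69.2% and 68.9% with SSTC3 and 80.5% and 79.9% with DMSO. The HoxD sum itself was not higher with SSTC3, at 65.83 and 63.7 CPM, against 68.79 and 68.1 CPM with DMSO.

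Most HoxA and HoxB genes were low in these cells, and 7 of the 12 tested in these clusters changed, close to the 53.6% of all genes. By direction, 5 HoxA genes fell, 1 rose and 1 was not called, and 1 HoxB gene fell and 4 were not called. Of all genes tested 26.5% fell and 27.1% rose. Hoxa3, a gene of the neck and throat region, had 4.71 and 4.54 CPM with SSTC3, against 8.03 and 8.02 CPM with DMSO (log2 fold change −0.74 ± 0.19, adjusted p = 0.000273). Hoxb4, known for its part in blood stem cells, had 2.06 and 1.12 CPM with SSTC3, against 3.17 and 5.34 CPM with DMSO (−1.36 ± 0.29, adjusted p = 2.02e-05). Hoxa2, which patterns the hindbrain and second pharyngeal arch, fell by 1.61 in log2 units (adjusted p = 0.000748) and Hoxa7 by 0.93 (adjusted p = 0.00239). Hoxa6 fell by 1.496 (adjusted p = 0.00333) and Hoxa4 by 0.55 (adjusted p = 0.0107). Both calls were lost with DESeq2 (adjusted p = 0.0593 for Hoxa6 and 0.125 for Hoxa4) and without DMSO replicate 2 (0.0804 and 0.239). Hoxa6 also lost it without SSTC3 replicate 1 (0.165), and Hoxa4 without SSTC3 replicate 2 (0.292) and with all 12 libraries (0.0895). Hoxa5 (log2 fold change 0.34 ± 0.23), Hoxb2 (0.07 ± 0.31), Hoxb3 (−0.28 ± 0.32), Hoxb8 (−0.52 ± 0.63) and Hoxb9 (0.24 ± 0.28) were not called.

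**Figure D3:**
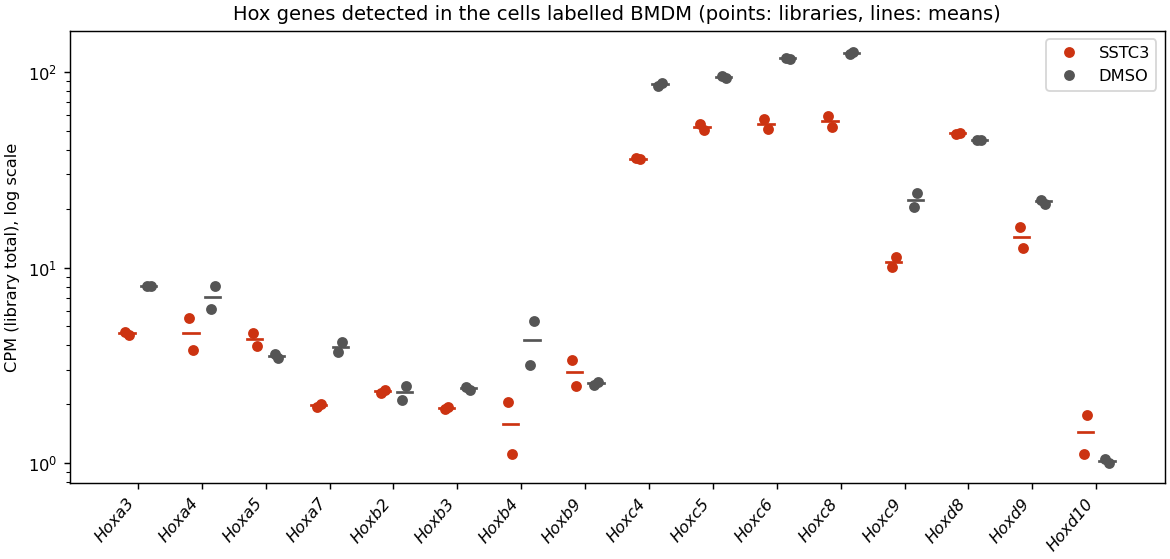
CPM of 16 of the 17 Hox genes detected in the SSTC3 and DMSO set, on a log axis, with a point for each library and a line for the mean of 2. The SSTC3 points of Hoxc4, Hoxc5, Hoxc6, Hoxc8 and Hoxc9 all lie below the DMSO points, whereas those of Hoxd8, at 48.1 and 48.9 CPM, lie just above.

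With so few Hox transcripts in the overexpression MEFs, 4 genes could be tested in CK1a_OE against OE_control, and 0 were called (background 5.78% higher, 7.57% lower and 13.3% in either direction). None had an unadjusted p under 0.05 in edgeR (0 of 4), and DESeq2 and limma-voom also called 0. Hoxa5 had 13.62 and 13.47 CPM in CK1a_OE, against 12.9 and 14.2 CPM in OE_control, a log2 fold change of −0.01 ± 0.13 (adjusted p = 0.971). Hoxa6 had 2.62 and 3.46 CPM in CK1a_OE, against 4.16 and 3.9 CPM in OE_control (−0.42 ± 0.26, adjusted p = 0.309). Hoxa3 had a log2 fold change of 0.33 ± 0.49 (adjusted p = 0.734). For Hoxa6 both CK1a_OE libraries were below both OE_control libraries, but the difference was within what the fit allows for replicates. The other 35 genes did not pass the filter on low counts, so a fall in them could not be seen at this depth. A rise past that filter in CK1a_OE was seen in none of them.

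With knockdown of CK1α, the 7 HoxB genes from Hoxb2 to Hoxb8 were higher. Of 26 Hox genes tested in CK1a_KD against KD_control, 13 rose and 4 fell, with a background of 28.3% higher, 26.4% lower and 54.7% in either direction among 14832 genes. The median log2 fold change was 0.49 over the 26 Hox genes and −0.008 over all genes tested. Hoxb8 (ENSMUSG00000056648), used in the thoracic region and in early myeloid cells, had 34.2 and 30.3 CPM in CK1a_KD, against 11.6 and 13.8 CPM in KD_control (1.38 ± 0.11, adjusted p = 6.96e-17). Hoxb6 (ENSMUSG00000000690) had 30 and 32.5 CPM in CK1a_KD, against 16 and 15.6 CPM in KD_control (1.02 ± 0.11, adjusted p = 7.83e-13). Hoxb2 (ENSMUSG00000075588), a hindbrain gene, had 10.7 and 10.8 CPM in CK1a_KD, against 2.43 and 3.19 CPM in KD_control (1.96 ± 0.20, adjusted p = 2.66e-13). In all 3 genes the groups were far apart.

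Hoxb3 had 4.02 and 3.1 CPM in CK1a_KD, against 0.934 and 0.785 CPM in KD_control (log2 fold change 2.08 ± 0.36, adjusted p = 9.34e-07). Of its exonic bases 52.9%, and 27.3% of those of Hoxb2, lie in exons of Hoxb3os on the other strand, which had 2.32 and 1.74 CPM in CK1a_KD, against 1.06 and 1.01 CPM in KD_control. Without a stated strand setting, it is not known whether reads in the shared bases were counted, and for which gene. Hoxb5 rose by a log2 fold change of 0.93 ± 0.21 (adjusted p = 0.000113), Hoxb4 by 0.58 ± 0.14 (adjusted p = 0.000326) and Hoxb7 by 0.41 ± 0.10 (adjusted p = 0.000308). Without CK1a_KD replicate 1, Hoxb4 was no longer called (adjusted p = 0.0621). Hoxb9, the most abundant HoxB gene of these cells, went the other way, with 57.2 and 57 CPM in CK1a_KD, against 91.3 and 96.6 CPM in KD_control (−0.68 ± 0.06, adjusted p = 2.54e-14). Hoxb13 was not called (0.33 ± 0.16, adjusted p = 0.0873). Of 9 HoxB genes tested 7 thus rose and 1 fell, where 28.3% of all genes tested rose and 26.4% fell. The cluster summed to 204.5 and 193.6 CPM in CK1a_KD, against 169.4 and 176.4 CPM in KD_control.

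In HoxA and HoxC calls in both directions stood side by side, 4 higher and 1 lower of 9 tested in HoxA, and 2 higher and 2 lower of 6 tested in HoxC. Among all genes tested 28.3% were higher, 26.4% lower and 54.7% either, and the HoxA total of calls lies near the last. Hoxa9 (ENSMUSG00000038227), known for its part in blood progenitors and leukaemia, had 48.2 and 49.4 CPM in CK1a_KD, against 27.7 and 26.8 CPM in KD_control (log2 fold change 0.88 ± 0.09, adjusted p = 7.59e-14). Its neighbour Hoxa10, a gene of the lumbar region and the uterus, had 48.9 and 47.1 CPM in CK1a_KD, against 25.9 and 28.6 CPM in KD_control (0.85 ± 0.09, adjusted p = 3.59e-13). Hoxa7 had 14.2 and 13.3 CPM in CK1a_KD, against 16.7 and 19.5 CPM in KD_control, and was called lower (−0.37 ± 0.12, adjusted p = 0.0107). Hoxc8 had 27.9 and 30.8 CPM in CK1a_KD, against 16.9 and 16.6 CPM in KD_control (0.85 ± 0.11, adjusted p = 3.94e-10). Hoxc9 had 31.8 and 30.3 CPM in CK1a_KD, against 19.4 and 17.9 CPM in KD_control (0.78 ± 0.10, adjusted p = 1.6e-09).

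The 2 HoxC genes called lower were Hoxc10 and Hoxc6. Hoxc10 had 40.4 and 42.3 CPM in CK1a_KD, against 59.6 and 54.6 CPM in KD_control (log2 fold change −0.43 ± 0.08, adjusted p = 2.56e-06). Hoxc6 had 13.2 and 10.8 CPM in CK1a_KD, against 15.6 and 16.9 CPM in KD_control (−0.40 ± 0.13, adjusted p = 0.00854). The calls of Hoxa7 and Hoxc6 were lost with DESeq2 (adjusted p = 0.0737 and 0.0677), without CK1a_KD replicate 2 (0.0938 and 0.201) and without KD_control replicate 2 (0.158 and 0.054). Hoxc4 (0.15 ± 0.24) and Hoxc5 (−0.02 ± 0.33) were not called. Hoxa6 rose by a log2 fold change of 0.99 ± 0.34 (adjusted p = 0.011), a call lost with DESeq2 (0.0739) and without CK1a_KD replicate 2 (0.0852) or KD_control replicate 2 (0.0812). Hoxa2 rose by 1.01 ± 0.44 (adjusted p = 0.045) and lost its call under most alternatives, leaving out any 1 library included (0.0737 to 0.203). Hoxa3, Hoxa4 and Hoxa5 were not called, although Hoxa3 was without KD_control replicate 1 (1.14, adjusted p = 0.0147).

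No HoxD gene was called with knockdown. Hoxd8 had 31.3 and 33.1 CPM in CK1a_KD, against 29.3 and 30 CPM in KD_control (log2 fold change 0.15 ± 0.09, adjusted p = 0.153). Hoxd9 had 21.1 and 22 CPM in CK1a_KD, against 19.1 and 19.6 CPM in KD_control (0.19 ± 0.11, adjusted p = 0.144). No other HoxD gene was tested there. The HoxA sum was 134.2 and 132.3 CPM in CK1a_KD, against 88.15 and 93.37 CPM in KD_control, and the HoxC sum 119.7 and 120.9 CPM in CK1a_KD, against 118.3 and 112.2 CPM in KD_control.

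**Figure D4:**
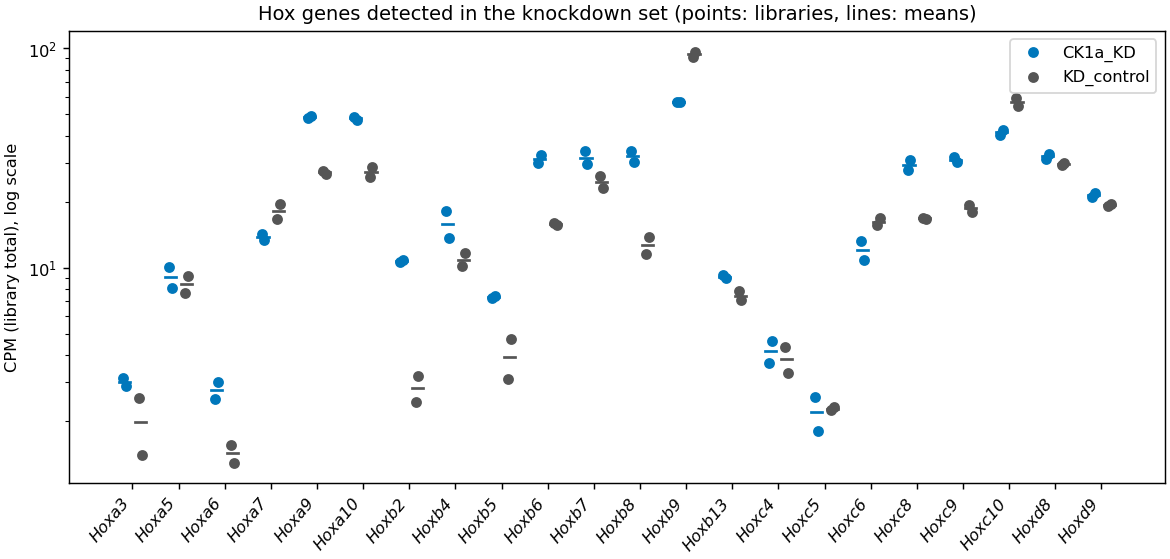
CPM of 22 of the 23 Hox genes detected in the knockdown MEFs, on a log axis, with a point for each library and a line for the mean of 2. CK1a_KD points lie above those of KD_control for the plotted genes from Hoxb2 to Hoxb8 and for Hoxa9 and Hoxa10, and below them for Hoxb9, at 57.2 and 57 CPM against 91.3 and 96.6 CPM, and for Hoxc10.

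SSTC3 activates CK1α and the siRNA lowers its transcript, and the difference between their effects was tested directly in the fit of all 12 libraries. The effect of SSTC3 minus that of CK1a_KD was below 0 for 15 of 28 Hox genes (background 21.6%) and above 0 for 1 (background 23.5%, and 45.1% in either direction). Hoxc8 had the clearest difference, −1.92 ± 0.12 on the log2 scale (adjusted p = 9.33e-26), with −1.11 for SSTC3 and 0.85 for CK1a_KD. The differences were −1.73 ± 0.17 for Hoxc9 (adjusted p = 8.81e-15), −1.33 ± 0.21 for Hoxc4 (adjusted p = 4.77e-08), −1.91 ± 0.34 for Hoxb4 (adjusted p = 2.7e-06) and −1.86 ± 0.39 for Hoxb2 (adjusted p = 3.41e-05). Hoxb9 was the gene with a difference above 0, 0.95 ± 0.24 (adjusted p = 0.000427). Hoxc6 fell in both comparisons, more so with SSTC3 (−0.62 ± 0.15, adjusted p = 0.000449), and Hoxd8 showed no called difference (0.04 ± 0.13, adjusted p = 0.865). The treatments were given to different cells, so a difference of treatment and a difference of cells cannot be told apart. For CK1a_OE most Hox genes were at 0 in both groups, which leaves such differences without information for those genes. SSTC3 minus CK1a_OE was called above 0 for 1 and below 0 for 2 of the 28 Hox genes. CK1a_OE minus CK1a_KD was called below 0 for 1 of 28. The share of all genes called in these differences is not given here, so these counts are a description.

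**Figure D5:**
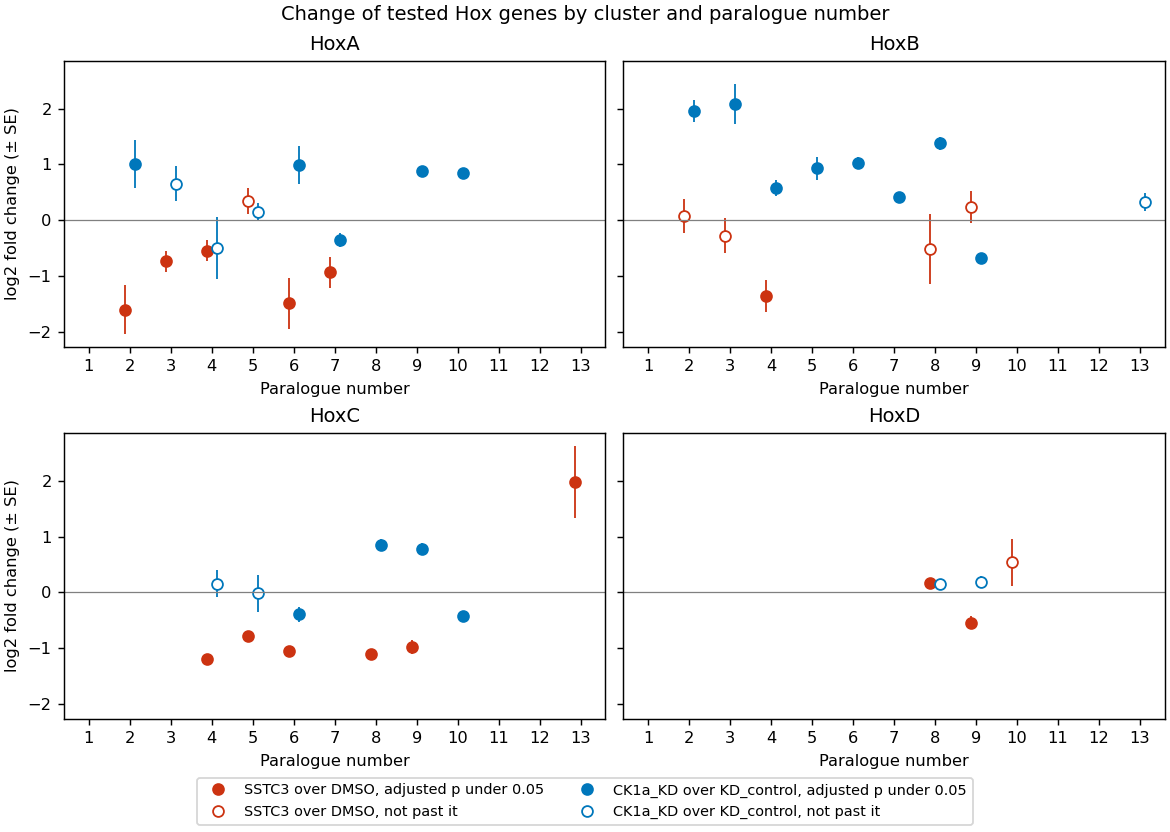
Log2 fold change ± SE of tested Hox genes by cluster and paralogue number, for SSTC3 over DMSO and CK1a_KD over KD_control (n = 2 libraries per group). Filled points passed an adjusted p of 0.05. HoxC genes 4 to 9 lie below 0 for SSTC3, and HoxB genes 2 to 8 lie above 0 for CK1a_KD.

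Hox proteins bind DNA with partners of the Pbx, Meis and Pknox families. With SSTC3, 1 of the 9 cofactor genes rose and 6 fell (median log2 fold change −0.60), where 27.1% of all genes tested rose and 26.5% fell. Pknox1 rose to 88.3 and 84.1 CPM with SSTC3, against 41.1 and 35.5 CPM with DMSO (1.23 ± 0.07, adjusted p = 3.98e-46). Pbx2 fell to 37.3 and 40.3 CPM with SSTC3, against 73.2 and 74.6 CPM with DMSO (−0.87 ± 0.07, adjusted p = 2.73e-27). Meis2 fell by 0.73 in log2 units (adjusted p = 4.38e-11). In CK1a_KD, 3 of 7 tested cofactors rose, among them Meis1 (0.41 ± 0.14, adjusted p = 0.0106) and Pbx2 (0.27 ± 0.11, adjusted p = 0.0339), and Meis3 fell (−0.32 ± 0.09, adjusted p = 0.00201), a share near the background of 54.7% in either direction. Pbx3 was nearly absent from the knockdown MEFs, with 0 CPM in 3 of 4 libraries, against 29.4 to 40.4 CPM in the SSTC3 and DMSO set. Of 9 cofactors tested in CK1a_OE, 0 were called (background 13.3%).

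Polycomb complexes keep Hox genes silent outside their domain. Of 31 Polycomb genes tested, 10 rose and 11 fell with SSTC3 (median log2 fold change 0.06), and in CK1a_KD 12 rose and 5 fell of 30 (median 0.04). With SSTC3 these shares lie above those of all genes, 27.1% higher, 26.5% lower and 53.6% in either direction. In CK1a_KD the background was 28.3% higher and 26.4% lower, and the total called lies near its 54.7%. By direction, the share of rises lies above that background and the share of falls below it. These departures from the background were not tested. With SSTC3, Cbx6 fell to 94.8 and 94.7 CPM, against 199.1 and 186.8 CPM with DMSO (−0.97 ± 0.05, adjusted p = 2.32e-51). Phc2 (0.92 ± 0.05) and Rybp (1.22 ± 0.09), both parts of Polycomb repressive complex 1, rose. In CK1a_KD the leading changes were rises, of Aebp2 (0.72 ± 0.05), Kdm2b (0.97 ± 0.08), Pcgf5 (0.66 ± 0.07) and Bmi1 (0.49 ± 0.06). Jarid2 fell in CK1a_OE (−0.37 ± 0.12, adjusted p = 0.0353), the 1 call among 30 tested there (background 13.3%).

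Trithorax-group proteins and their partners hold Hox genes active. With SSTC3, 3 of 19 rose and 12 fell (median log2 fold change −0.18), and in CK1a_KD 9 of 18 rose and 6 fell (median 0.18). The background was 27.1% higher and 26.5% lower with SSTC3, and 28.3% higher and 26.4% lower in CK1a_KD. Kdm6b, which removes the methyl mark that Polycomb lays down, rose to 166.9 and 158.1 CPM with SSTC3, against 70 and 69.7 CPM with DMSO (1.27 ± 0.05, adjusted p = 3.94e-65). In CK1a_KD it fell to 51.1 and 55.4 CPM, against 102.8 and 102.7 CPM in KD_control (−0.91 ± 0.06, adjusted p = 1.57e-19). Men1 (−0.65 ± 0.05), Chd8 (−0.66 ± 0.05) and Hcfc1 (−0.46 ± 0.04) fell with SSTC3. Psip1 (0.94 ± 0.06), Kmt2b (1.00 ± 0.07) and Hcfc1 (0.73 ± 0.05) rose in CK1a_KD. In CK1a_OE 3 rose and 2 fell of 19 (background 5.78% and 7.57%), led by Kmt2d (−0.29 ± 0.05, adjusted p = 5.05e-06) and Wdr5 (0.21 ± 0.05, adjusted p = 0.00156), followed by Hcfc1 (0.11 ± 0.04, adjusted p = 0.0287) and Mllt1 (−0.12 ± 0.04, adjusted p = 0.0335).

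Genes upstream of Hox expression in the embryo include the Cdx factors, retinoic acid enzymes and receptors, Gdf11 and Egr2. Cdx2 was at 0 in all 12 libraries. With SSTC3, 8 of 11 tested members of this list rose and 2 fell (background 27.1% and 26.5%), and in CK1a_KD 2 of 11 rose and 6 fell (background 28.3% and 26.4%). Egr2, a hindbrain regulator of Hoxa2 and Hoxb2 that also responds to growth signals, had 28.5 and 27 CPM with SSTC3, against 0.117 and 0 CPM with DMSO. In CK1a_KD it fell to 4.74 and 3.63 CPM, against 37 and 37.8 CPM in KD_control (log2 fold change −3.12 ± 0.13, adjusted p = 2.46e-30). Fgfr1 rose with SSTC3 (0.77 ± 0.05) and fell in CK1a_KD (−0.68 ± 0.05), and Tgfbr1, a receptor for Gdf11, rose with SSTC3 (0.72 ± 0.08). Gdf11, a trunk-to-tail signal, fell to 14.2 and 14.4 CPM with SSTC3, against 32 and 28.3 CPM with DMSO (−1.02 ± 0.11, adjusted p = 8e-18). Rarg, a retinoic acid receptor, fell in CK1a_KD (−0.86 ± 0.07), and Ctcf, which binds between Hox genes, rose (0.42 ± 0.06). In CK1a_OE, Cyp26b1 fell (−0.56 ± 0.14, adjusted p = 0.00529), 1 of 2 calls among 10 tested (background 13.3%).

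Other position-dependent transcription factors were compared between the sets as well. Of 36 tested, DMSO was higher than OE_control for 16 (background 33.8%) and lower for 18 (34.9%). DMSO was higher than KD_control for 18 (background 38.8%) and lower for 12 (41.9%), and in total near the 80.7% of all genes called. OE_control was higher than KD_control for 20 (background 38.4%) and lower for 12 (41.4%). In the overexpression MEFs Gata4, a heart and gut mesoderm factor, had 83.8 to 93.6 CPM and Foxf1, of gut and lung mesenchyme, 58.9 to 65.2 CPM, where DMSO had 1.29 and 2.08 CPM of Gata4 and 0.528 and 0.534 CPM of Foxf1. En1, a factor of the midbrain, limb and ventral skin, had 35 to 55.7 CPM in the SSTC3 and DMSO set, 7.73 to 16.3 CPM in the knockdown MEFs and 0 CPM in all 4 overexpression libraries. Twist1, a mesenchymal factor, was at 0 in all 4 knockdown libraries, against 29.9 to 79.3 CPM in the other 8. Tbx5 and Pitx1, factors of the fore limb and hind limb, were at 0 in all 12 libraries.

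Within the comparisons this list moved both ways. With SSTC3, 11 of 28 tested rose and 8 fell (background 27.1% and 26.5%). Tbx15 fell to 97.9 and 101.4 CPM with SSTC3, against 198 and 190.3 CPM with DMSO (log2 fold change −0.91 ± 0.05, adjusted p = 1.21e-47), and Prrx1, of limb and skull mesenchyme, fell by 0.77 (adjusted p = 4.17e-43). Twist1 (0.72 ± 0.07) and Dlx2 (0.92 ± 0.10) rose. In CK1a_KD, 6 of 21 tested rose and 7 fell, near the background of 28.3% and 26.4%. Emx2 (−0.75 ± 0.17) fell, and En1 (0.83 ± 0.15) rose. Of 27 tested in CK1a_OE, 0 were called (background 13.3%).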

How the data were processed

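Polyadenylated RNA was sequenced in paired-end reads on an Illumina HiSeq, per the labels' protocols. Reads were aligned with HISAT2 to mm10 and counted with featureCounts, per the submitters' processing notes. Their versions, the strand setting and the annotation were not stated. The deposited files hold whole-number counts per gene, which the authors left unscaled. Symbols and exons came from GENCODE M21. CPM is the count per 1000000 counts of the library; totals of 16063627 to 19427506 limit precision as the floor of 3 counts shows, and counting intervals (95%, exact binomial) cover counting error only.

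The 4 libraries of a comparison were fitted by themselves with edgeR 4.0.16 in R 4.3.3 (filterByExpr, TMM, robust quasi-likelihood F test, Benjamini-Hochberg adjustment over all genes tested, threshold 0.05). Control groups and differences between effects were tested in 1 fit of all 12 libraries. SE is the absolute log2 fold change over the square root of F. The test was also run on simulated data. Alternatives were DESeq2 1.42.0, limma-voom (limma 3.58.1), RLE factors or library totals as scaling, other filters, leaving out libraries, a replicate block, leaving out genes that share 10% or more of their exonic bases, and other thresholds or lengths.

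Genes named in full are up to 8 called Hox genes per comparison by adjusted p, up to 8 per pair of control groups by fold change, the last detected gene of each cluster with the next one, the 3 highest per kilobase in each set, up to 4 members of each other list by adjusted p, and Csnk1a1. Names outside it (the other Hox genes, Pbx3, Cdx2, Meis1, Tbx5, Pitx1 and the neighbours of the clusters) were chosen after values were seen or by position. Members and lists were chosen with earlier results of these data known. Replicate pairs differed by more than counting noise (chi-square per degree of freedom 2.29 to 3.61). Some genes that the rule names are not reported here; counts and sums include them.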

Additional observations from a re-analysis of the deposited data

How the results depend on the processing

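Counts of Hox genes called kept within 1.5 times in most alternatives; the exceptions follow, and their cause was not tested. For SSTC3 against DMSO the 3 higher genes became 0 with DESeq2 and 0 to 2 with 1 library left out. For CK1a_KD against KD_control the 4 lower genes became 2 with DESeq2 and 2 to 4 with 1 library left out. For DMSO against KD_control the 10 higher genes became 6 when genes that share exons were left out, which removes tested genes. For OE_control against KD_control the 2 higher genes became 1 with DESeq2 and 1 to 2 with 1 library left out. At 5 CPM in place of 1 CPM, 7 genes were detected in the SSTC3 and DMSO set and 1 in the overexpression set. With TMM-scaled CPM the cluster sums per kilobase moved to 11.7 for HoxA in the overexpression set and, in the knockdown set, to 60.3 for HoxC and 23.2 for HoxD, and with all exonic bases HoxC moved to 52.4 there.

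Changes of sign came in genes whose main value was not called, apart from Hoxa2 in DMSO against KD_control. With 1 library left out, log2 fold changes ran over 0 for Hoxb2 in SSTC3 against DMSO (−0.051 to 0.19), for Hoxa3 (−0.279 to 1.408) and Hoxa5 (−0.079 to 0.062) in CK1a_OE against OE_control, and for Hoxa4 (−1.048 to 0.185), Hoxa5 (−0.016 to 0.285), Hoxc4 (−0.041 to 0.361) and Hoxc5 (−0.299 to 0.216) in CK1a_KD against KD_control. They also did so for Hoxa6 (−0.036 to 0.322), Hoxc9 (−0.016 to 0.22) and Hoxd9 (−0.007 to 0.063) in DMSO against KD_control. With library totals Hoxa5 became 0.002 in CK1a_OE against OE_control, and the difference of SSTC3 and CK1a_KD effects for Hoxd8 became −0.007. With RLE factors and with DESeq2, Hoxd9 became −0.023 in DMSO against KD_control. With both groups of a set averaged, treated libraries included, in DMSO against KD_control Hoxa2 became −0.225, Hoxa6 −1.082, Hoxc9 −0.766 and Hoxd9 −0.331.

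Deviations of same-numbered replicates had correlations of −0.056, 0.005 and −0.031 in the 3 comparisons, so the numbers were not taken as pairs. With a replicate block the calls for SSTC3 were 2 higher and 12 lower, and for CK1a_KD 12 higher and 4 lower; Hoxd8 (adjusted p = 0.0652) and Hoxa2 (adjusted p = 0.0518) lost theirs. Depth limits the genes with few counts, and 31 Hox genes at the floor in the overexpression set allow no statement of a fall. None of the 31 rose above 3 counts in a CK1a_OE library.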

Other observations

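Noncoding neighbours of the clusters and coding genes outside them were read by position and belong to no comparison above. The coding genes were the nearest ones more than 10 kb outside a cluster with a mean of at least 1 CPM over the 12 libraries. In CK1a_KD, Hoxb5os, antisense to Hoxb5, had 2.63 and 3.31 CPM, against 0.685 and 1.01 CPM in KD_control (log2 fold change 1.83 ± 0.38, SE, adjusted p = 3.05e-05, edgeR). Hotair, a noncoding RNA of the HoxC cluster known from human cells to act on HoxD, had 0.206 and 0.0526 CPM in CK1a_KD, against 0.623 and 0.897 CPM in KD_control (−2.46 ± 0.78, adjusted p = 0.0056), at most 16 counts in any library. Hotairm1, a noncoding RNA of the HoxA cluster, was present in all 12 libraries at 2.24 to 5.63 CPM, the overexpression set included, and rose in CK1a_KD (0.57 ± 0.23, adjusted p = 0.0316). With SSTC3, Haglr, which is antisense in HoxD, was at 0.236 and 0.354 CPM, against 1.47 and 0.95 CPM for DMSO (−1.96 ± 0.58, adjusted p = 0.00226).

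Coding genes chosen in this way beside the HoxC cluster moved in both directions with SSTC3. Smug1 fell (−0.74 ± 0.09, adjusted p = 2.33e-14) and so did Cbx5 (−0.35 ± 0.04, adjusted p = 3.8e-18), Atp5g2 rose (0.14 ± 0.04, adjusted p = 0.00281) and Calcoco1 was not called (0.01 ± 0.09, adjusted p = 0.913). Beside HoxB in CK1a_KD, Snx11 (0.96 ± 0.08) and Cbx1 (0.51 ± 0.07) rose on 1 side, and Ttll6 (−0.83 ± 0.22) and Atp5g1 (−0.42 ± 0.06) fell on the other. The difference between these genes and the Hox genes was not tested.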
